A study of Mus musculus with 4 samples.

Results

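Dkk1, Dkk2, Dkk3, Sfrp1, Sfrp2, Sfrp5, Frzb and Wif1 encode secreted antagonists of WNT signalling, and Kremen1 encodes a membrane receptor that works with the Dickkopf proteins. They were taken by gene symbol, and all 9 were found among the 52459 genes of the deposited table. The samples were RNA-seq libraries of the first pharyngeal arch, the embryonic outgrowth that forms the jaws, from mouse embryos of 25 to 27 somites, an age of E9.5 to E9.75. Of the 4 libraries, 2 were from Wnt1-Cre;pMes-Bmp4 embryos, which carry a Bmp4 transgene and the Wnt1-Cre driver that switches it on in the neural crest lineage, and 2 from wild-type embryos. No group carried the driver or the transgene alone, so effects of raised Bmp4 and of the alleles or background themselves cannot be told apart. The labels do not say whether the libraries of a genotype came from separate embryos or litters, so p-values measure the spread between these samples, which may be technical.

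WNT ligands signal through Frizzled receptors and, in the β-catenin branch, through the co-receptors LRP5 and LRP6. Dickkopf proteins such as DKK1 act on the receptor side: DKK1 binds LRP5 and LRP6 and, with Kremen proteins, takes them out of signalling. Secreted Frizzled-related proteins, Frzb among them, and WIF1 act on the ligand side by binding WNT proteins. In mouse, DKK1 is known for its need in head formation, and its gene is a known target of both BMP and β-catenin signalling.

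RefSeq promoter windows of GRCm38.p6 were matched for 6 of the 9 genes. The 250 bases before each start were searched on both strands for the TCF/LEF core CTTTGA, bound by the factors that act with β-catenin, and for the SMAD motifs GGCGCC and CAGAC; no matches overlapped. The TCF/LEF core was in the windows of Dkk1, with 2 matches, and Frzb, with 1, and in 13.8% of 32851 RefSeq windows of the same length. GGCGCC was in none of the 6 windows, against 9.59% of all windows, and CAGAC was in those of Sfrp2 and Sfrp5, against 42.2%. A match describes letters and is not evidence of binding. The matches of the 2 genes are shown because Dkk1 is the gene whose level passed the test below and Frzb is the other with this motif, with the motif, or TCAAAG where it reads on the other strand, in capitals.
Dkk1, chr19:30549665-30549746, minus strand, 82 bases from 250 to 169 before the RefSeq start: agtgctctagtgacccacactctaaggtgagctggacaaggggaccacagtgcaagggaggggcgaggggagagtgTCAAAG
Dkk1, chr19:30549598-30549623, minus strand, 26 bases around the match that begins 117 bases before the start: cctcccaaagCTTTGAaatcccatcc
Frzb, chr2:80447476-80447501, minus strand, 26 bases around the match that begins 95 bases before the start: ccctgaaaacTCAAAGccttctcgga
GENCODE M21 places the first base of Dkk1 169 bases before the RefSeq start and that of Frzb 229 bases before it, so the 26-base stretches lie inside the longer GENCODE transcripts.

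The libraries held 31404494 and 29607541 reads assigned to genes in Wnt1-Cre;pMes-Bmp4 and 47849092 and 33763574 in wild-type. Values below are normalized read counts, that is, reads divided by a size factor for each library, and log2 fold changes are differences of log2(value + 1), Wnt1-Cre;pMes-Bmp4 minus wild-type. Of the 9 genes, 7 reached a mean of 10 over the 4 libraries and were tested in limma with all 16746 genes at that level. Bmp4 itself had 2656 and 1745 normalized reads in Wnt1-Cre;pMes-Bmp4 against 681.7 and 437.1 in wild-type, a count that cannot separate transgenic from endogenous Bmp4 transcripts where their sequence is the same. All 8 markers of crest mesenchyme reached the minimum mean, with summed levels of 19514 and 14857 in Wnt1-Cre;pMes-Bmp4 against 15805 and 20655 in wild-type. Of these, 1 was called higher in limma, Msx1, and 0 lower, against 2.97% and 5.28% of all genes tested. The log2 fold change was negative for 5 of the 8 and positive for 3, with a median of -0.31. Twist1 was at -0.68 with a limma adjusted p of 0.0502. At an unadjusted p under 0.05, 2 of the 8 were higher and 2 lower, against 13.4% and 15.3% of all genes. The count models edgeR and DESeq2 each called 1 higher and 1 lower, against 2.44% and 5.46% in edgeR and 9.99% and 12.3% in DESeq2. Msx1 did not pass after the length correction described below (limma adjusted p of 0.0749), where the median of the list was 0.08.

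Dkk1 was the gene of the set that passed. Of the 7 genes tested, 1 was called higher and 0 lower in limma, against 2.97% and 5.28% of all genes tested. At an unadjusted p under 0.05, 3 were higher and 2 lower, against 13.4% and 15.3% of all genes. The count model edgeR called 1 higher and 0 lower, against 2.44% and 5.46%. DESeq2, which gave an adjusted p to 6 of the 7 and to 12850 genes in all, called 1 higher and 1, Kremen1, lower, against 9.99% and 12.3% of those genes. Both transgenic libraries lay above both wild-type libraries for 3 of the 7, Dkk1, Dkk3 and Frzb, and below for 3, Dkk2, Kremen1 and Sfrp1, against 30% and 29.7% of all genes tested. The median log2 fold change of the 7 was -0.42, against 0.02 for all genes. Corrected for transcript length, Dkk1 was again called and 0 were lower, against 0.61% of genes higher and 0.931% lower. The limma calls below on all 4 libraries rest on both wild-type libraries, since limma called 0 genes without wild-type replicate 1 and 1 without wild-type replicate 2, where 3185 and 1806 had an unadjusted p under 0.05.

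Dkk1 rose in Wnt1-Cre;pMes-Bmp4. It had 457.5 and 522.6 normalized reads in Wnt1-Cre;pMes-Bmp4 libraries 1 and 2, against 152.1 and 101.8 in wild-type libraries 1 and 2. Both transgenic libraries lay above both wild-type libraries by more than the spread within either group. The means were 490.1 ± 46 in Wnt1-Cre;pMes-Bmp4 and 126.9 ± 35.5 in wild-type (SD, n = 2 each). This was a log2 fold change of 1.97 ± 0.25 (SE), or 3.91-fold, with a 95% interval of 1.37 to 2.56 and a limma adjusted p of 0.0211. It was the 61st highest log2 fold change of the 16746 genes tested, whose median was 0.02. Dkk1 is on the minus strand of chromosome 19, at 30545863 to 30549665 of GRCm38.

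The depth behind Dkk1 was 429 and 431 reads in Wnt1-Cre;pMes-Bmp4 and 205 and 99 in wild-type. Exact Poisson intervals of 95%, which cover counting error only, ran from 415.3 to 502.9 and from 474.4 to 574.3 normalized reads in Wnt1-Cre;pMes-Bmp4, and from 132.0 to 174.4 and from 82.8 to 124.0 in wild-type. The 2 wild-type libraries therefore differed from each other by more than counting error. The call rested on both of them, as did the other limma calls on all 4 libraries. Without wild-type replicate 1 the log2 fold change of Dkk1 was 2.25, and without wild-type replicate 2 it was 1.68. It was 2.06 without transgenic replicate 1 and 1.87 without transgenic replicate 2. Transcripts of 1743.4 to 2801.8 bases, the range that holds Dkk1, had a median log2 fold change of 0.23 where the mean was 50 or more, and after a correction for transcript length Dkk1 stood at 1.76 with a limma adjusted p of 0.0365.

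In RNA of the whole arch, more cells of a type and more RNA per cell cannot be told apart. Markers of epithelium summed to 34459 and 32376 normalized reads in Wnt1-Cre;pMes-Bmp4 against 25754 and 19480 in wild-type. Of the 9 epithelium markers tested 2 were called higher in limma, the keratins Krt18 and Krt14, against 2.97% of all genes, and none lower. The log2 fold change was positive for 7 of the 9 and negative for 2. Neither keratin passed after the length correction, with limma adjusted p values of 0.0781 and 0.0984. At an unadjusted p under 0.05, 4 epithelium markers were higher and 0 lower, against 13.4% and 15.3% of all genes. In edgeR 2 were higher and in DESeq2 4, against 2.44% and 9.99%. The sums were 5403 and 5540 in Wnt1-Cre;pMes-Bmp4 against 4333 and 4160 in wild-type for endothelium, and 3812 and 3713 in Wnt1-Cre;pMes-Bmp4 against 2784 and 2715 in wild-type for head mesoderm and muscle. No marker of these 2 lists passed in limma (0 of 8 and 0 of 6). At an unadjusted p under 0.05, 4 and 2 were higher and 0 and 1 lower, against 13.4% and 15.3% of all genes. In each list edgeR called 0 in either direction and DESeq2 called 2 higher, against 9.99%. The head mesoderm list went both ways, since DESeq2 also called 1 of its markers lower and Lhx2 was at -1.51 on the log2 scale with a limma adjusted p of 0.0767. Markers of cranial ganglia and neurons summed to 3820 and 3192 in Wnt1-Cre;pMes-Bmp4 against 3005 and 3125 in wild-type. Of the 7 tested 1, Isl1, was called higher in limma, against 2.97% of all genes, while 5 of the 7 had a negative log2 fold change. In these 4 lists both transgenic sums were above both wild-type sums, as for Dkk1, and their part in the Dkk1 difference was not tested. Sums of neural tube and of heart markers overlapped between the groups, and their members Olig2 and Nppa had 0 reads in all 4 libraries.

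**Figure D1:**
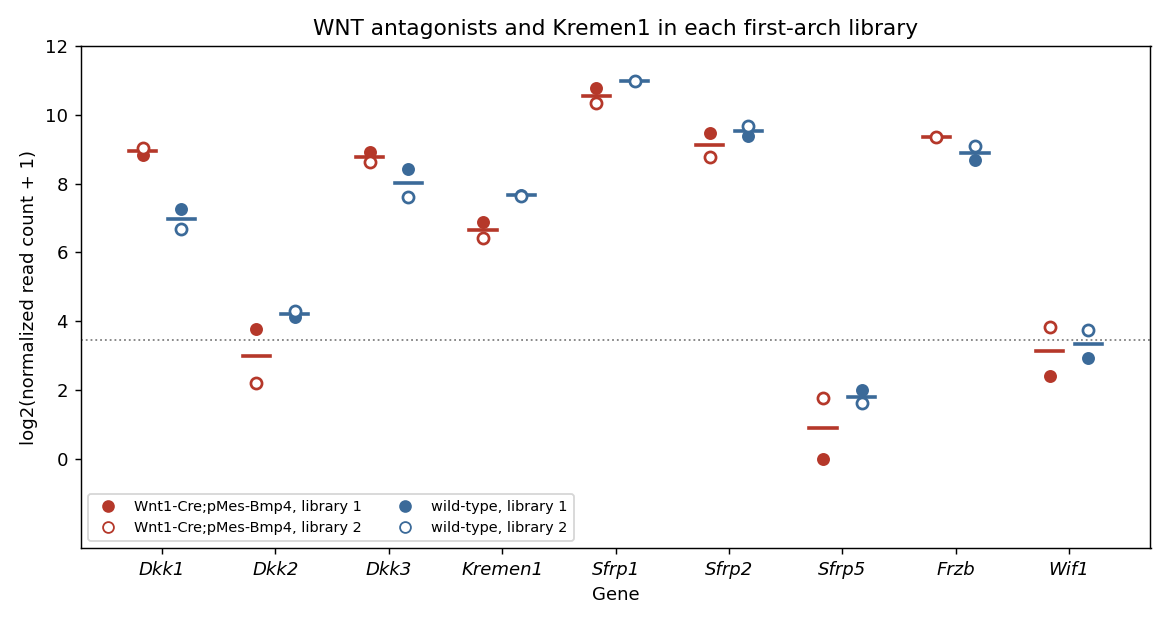
Level of each of the 9 genes in each library, as log2(normalized read count + 1). Filled and open points are libraries 1 and 2, bars are group means on this scale, red is Wnt1-Cre;pMes-Bmp4 and blue is wild-type, and the dotted line marks a normalized read count of 10. For Dkk1 both red points, at 457.5 and 522.6 normalized reads, sit above both blue points, at 152.1 and 101.8.

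Dkk3 and Dkk2, the other Dickkopf genes, did not pass. DKK3 is the divergent member of the family and is not known as a ligand of LRP6. Dkk3 had 484.2 and 391.6 normalized reads in Wnt1-Cre;pMes-Bmp4 against 344.9 and 194.4 in wild-type. The groups did not overlap, but the wild-type libraries were nearly as far apart as the groups. Its log2 fold change of 0.75 ± 0.29 (SE) had a 95% interval of 0.06 to 1.44 and a limma adjusted p of 0.148. The value depended on the library left out. It was 0.34 with a limma adjusted p of 0.694 without wild-type replicate 2, 0.59 with 0.0589 without transgenic replicate 1, 0.90 with 0.00369 without transgenic replicate 2, and 1.16 with 0.145 without wild-type replicate 1. Dkk3 lies on chromosome 7 at 112116017 to 112159057.

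DKK2 also binds LRP6 and has been described as an antagonist or as a weak agonist depending on the context. Dkk2, on chromosome 3 at 132085292 to 132180304, was close to the limit of detection. It had 12.8 and 3.64 normalized reads in Wnt1-Cre;pMes-Bmp4, from 12 and 3 reads, against 16.3 and 18.5 in wild-type, from 22 and 18 reads. Both transgenic libraries were below both wild-type libraries, and the counting intervals of Wnt1-Cre;pMes-Bmp4 library 1, 6.61 to 22.4, and of wild-type library 1, 10.2 to 24.7, overlapped. The log2 fold change of -1.20 ± 0.74 (SE) had a 95% interval of -2.93 to 0.53 and a limma adjusted p of 0.326. It was -1.99 with 0.0643 without transgenic replicate 1 and -0.41 with 0.764 without transgenic replicate 2. A difference of this size was not detectable at this depth.

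Kremen1, the receptor that DKK1 binds beside LRP6, lay just outside the threshold. Its level was 116.2 and 84.9 normalized reads in Wnt1-Cre;pMes-Bmp4 against 201.8 and 199.5 in wild-type. The wild-type libraries were nearly equal, and both transgenic libraries were below them. The means were 100.6 ± 22.2 in Wnt1-Cre;pMes-Bmp4 and 200.6 ± 1.57 in wild-type (SD, n = 2 each). Its log2 fold change of -1.01 ± 0.27 (SE) had a 95% interval of -1.63 to -0.38 and a limma adjusted p of 0.0594. Over the alternatives its adjusted p ran from 0.000768 without Wnt1-Cre;pMes-Bmp4 replicate 1 to 0.451 without wild-type replicate 2. DESeq2 on the recovered reads gave 0.0214 and edgeR 0.0632. After the length correction the log2 fold change was -0.82 with a limma adjusted p of 0.113. Markers of red cells summed to 341155 and 381176 normalized reads in Wnt1-Cre;pMes-Bmp4 against 674605 and 613782 in wild-type. Most of that sum was RNA of the globins Hbb-y, Hbb-bh1 and Hba-x. In the red cell list 6 log2 fold changes were negative and 2 positive, Alas2 at 0.36 and Gata1 at 0.13. Markers of pharyngeal endoderm summed to 1127 and 766.3 in Wnt1-Cre;pMes-Bmp4 against 1324 and 1248 in wild-type, with 4 log2 fold changes negative and 1 positive. Both sums were lower in both transgenic libraries, as Kremen1 was. Of the markers tested, 3 of 8 for red cells and 0 of 5 for endoderm were called lower in limma, against 5.28% of all genes. At an unadjusted p under 0.05, 4 and 2 were lower, against 15.3%. In edgeR 3 and 0 were lower, against 5.46%, and in DESeq2 4 and 1, against 12.3%. After the length correction 0 of either list were called, and their part in the Kremen1 difference was not tested. Kremen1 lies on chromosome 11 at 5191552 to 5261558, and its longest transcript has 4856 bases.

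Per kilobase of transcript, Dkk1 stood at 7.87 and 12.3 times the level of Kremen1 in Wnt1-Cre;pMes-Bmp4 libraries 1 and 2, against 1.51 and 1.02 times in wild-type libraries 1 and 2. On this measure Dkk1 RNA thus had nearly the level of Kremen1 RNA in wild-type library 2 and several times that level in both transgenic libraries. The ratio depends on the length used. The longest Kremen1 transcript has 4856 bases and all its exons together 7722, while both lengths are 2427 for Dkk1. Protein was not measured. The ratio joins a member that passed with one that did not, and it was not tested.

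**Figure D2:**
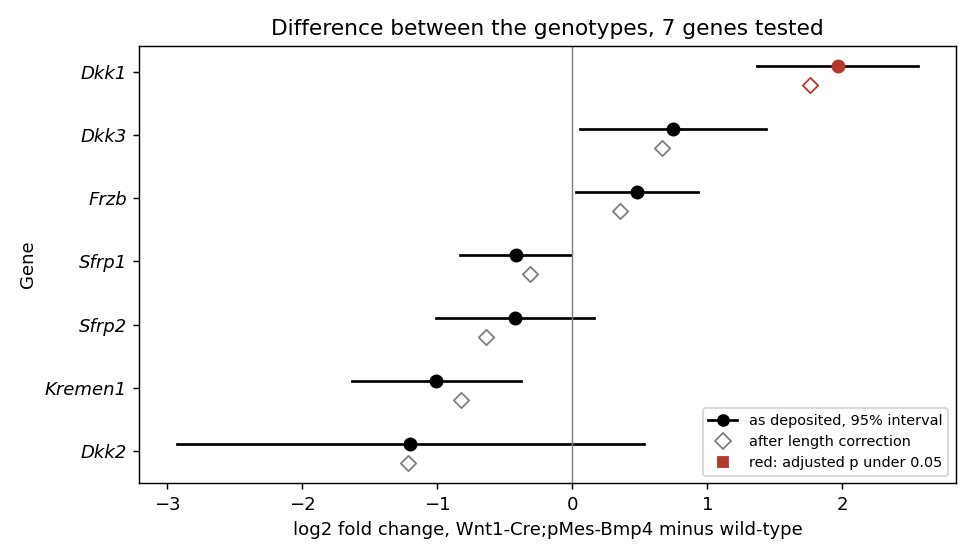
Log2 fold change, Wnt1-Cre;pMes-Bmp4 minus wild-type, for the 7 genes tested. Circles with lines are the deposited values with 95% intervals from limma, diamonds are the values after the length correction, and red marks an adjusted p under 0.05. Dkk1, at 1.97 and 1.76, is red in both; Kremen1 is at -1.01 with an interval that ends at -0.38.

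Among the Frizzled-related proteins, which bind WNT ligands through a domain like that of Frizzled receptors, none of the 3 genes tested passed. Sfrp1 had 1763 and 1286 normalized reads in Wnt1-Cre;pMes-Bmp4 against 2000 and 2029 in wild-type, and the groups did not overlap. The wild-type libraries were close to each other, while Wnt1-Cre;pMes-Bmp4 library 2 was well below library 1. Its log2 fold change was -0.42 ± 0.18 (SE), with a 95% interval of -0.83 to -0.01 and a limma adjusted p of 0.169. Sfrp1 lies on chromosome 8 at 23411502 to 23449632.

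Sfrp2, on chromosome 3 at 83766321 to 83774316, had 701.8 and 436.5 normalized reads in Wnt1-Cre;pMes-Bmp4 against 670.5 and 821.8 in wild-type. The groups overlapped, since Wnt1-Cre;pMes-Bmp4 library 1 lay between the wild-type libraries. Its log2 fold change was -0.42 ± 0.25 (SE), with a 95% interval of -1.01 to 0.16 and a limma adjusted p of 0.307. Both genes were called lower without Wnt1-Cre;pMes-Bmp4 replicate 1, where Sfrp1 was at -0.65 with a limma adjusted p of 0.00101 and Sfrp2 at -0.76 with 0.00156. Without Wnt1-Cre;pMes-Bmp4 replicate 2 they were at -0.19 and -0.08, so their size depended on the library. The exons of Sfrp2 overlap those of the antisense gene Gm26771 by 347 bases, and without a stated strand setting their reads cannot be told apart there. Gm26771 had a mean of 15.1 normalized reads against 657.6 for Sfrp2.

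Frzb, known for its part in cartilage and bone, had 648.4 and 657.2 normalized reads in Wnt1-Cre;pMes-Bmp4 against 407.2 and 540.0 in wild-type. The transgenic libraries were nearly equal and lay above both wild-type libraries, which differed from each other. Its log2 fold change of 0.48 ± 0.19 (SE) had a 95% interval of 0.03 to 0.93 and a limma adjusted p of 0.156. It was called under none of the 18 alternatives, where its adjusted p ran from 0.0720 to 0.581, and the value was 0.27 without wild-type replicate 1 and 0.68 without wild-type replicate 2. Frzb lies on chromosome 2 at 80411970 to 80447625.

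Wif1 and Sfrp5 did not reach the minimum mean and were not tested. WIF1 binds WNT ligands through a domain of its own, and its gene, on chromosome 10 at 121033960 to 121100650, gave 4 and 11 reads in Wnt1-Cre;pMes-Bmp4 against 9 and 12 in wild-type. Its normalized levels were 4.27 and 13.3 in Wnt1-Cre;pMes-Bmp4 against 6.68 and 12.3 in wild-type, so the groups overlapped and the mean of 9.16 fell just under the minimum of 10. Sfrp5, on chromosome 19 at 42197971 to 42202252, gave 0 and 2 reads in Wnt1-Cre;pMes-Bmp4 against 4 and 2 in wild-type. A count of 0 in Wnt1-Cre;pMes-Bmp4 library 1 allows a level of up to 3.20 normalized reads, the worth of 3 reads there, which is above the level in each of the other libraries. No difference in Sfrp5 was detectable at this depth.

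Levels can be compared between the genes per kilobase of the longest transcript. In Wnt1-Cre;pMes-Bmp4 the mean levels were 348.7 normalized reads per kilobase for Sfrp1, 284.1 for Sfrp2, 207.3 for Frzb, 201.9 for Dkk1, 130.4 for Dkk3, 20.7 for Kremen1, 3.84 for Wif1, 2.22 for Dkk2 and 0.638 for Sfrp5. In wild-type they were 460.8 for Sfrp1, 372.5 for Sfrp2, 150.4 for Frzb, 80.3 for Dkk3, 52.3 for Dkk1, 41.3 for Kremen1, 4.70 for Dkk2, 4.15 for Wif1 and 1.32 for Sfrp5. Sfrp1 and Sfrp2 led in both genotypes, and Dkk1 stood beside Frzb in Wnt1-Cre;pMes-Bmp4 and below Dkk3 in wild-type. Frzb at 205.9 and 208.7 and Dkk1 at 188.5 and 215.3 overlapped in Wnt1-Cre;pMes-Bmp4, as did Sfrp1 at 403.2 and 294.2 and Sfrp2 at 350.4 and 217.9. In wild-type Dkk3, at 102.7 and 57.9, overlapped with Dkk1, at 62.7 and 42.0. Wif1 and Dkk2 overlapped in both genotypes, and Dkk2 overlapped with Sfrp5 in Wnt1-Cre;pMes-Bmp4. Other neighbours in these orders did not overlap.

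The sum over the 9 genes was 1321 and 1078 normalized reads per kilobase in Wnt1-Cre;pMes-Bmp4 against 1137 and 1198 in wild-type, and the groups overlapped. Dkk1 made up 14.3% and 20.0% of that sum in Wnt1-Cre;pMes-Bmp4 against 5.51% and 3.50% in wild-type. Sfrp1 made up 30.5% and 27.3% in Wnt1-Cre;pMes-Bmp4 against 40.2% and 38.7% in wild-type. Sfrp2 took 26.5% and 20.2% in Wnt1-Cre;pMes-Bmp4 against 29.4% and 34.2% in wild-type. The shares are not independent of each other, since they add up to the whole.

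**Figure D3:**
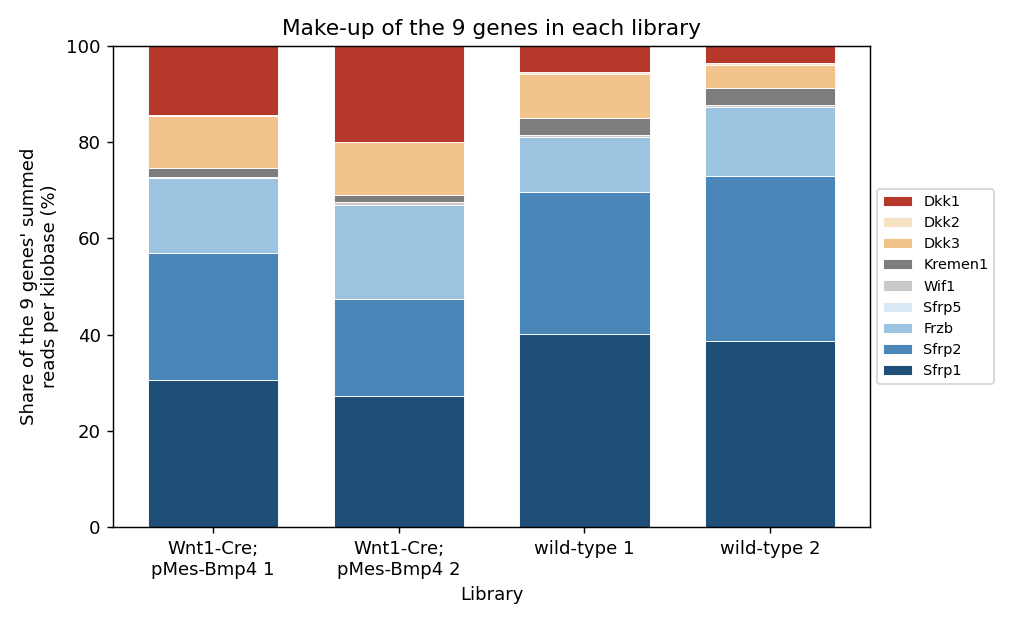
Share of each of the 9 genes in their summed normalized reads per kilobase, in percent, for each library, with the Wnt1-Cre;pMes-Bmp4 libraries on the left. Dkk1, at the top in red, takes 14.3% and 20.0% in Wnt1-Cre;pMes-Bmp4 and 5.51% and 3.50% in wild-type.

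Other genes of the pathway were read from lists. Of 14 other antagonists 6 were tested and 1 was called higher in limma, against 2.97% of all genes. It was Shisa2, of a family known in Xenopus for holding back the maturation of WNT and FGF receptors. Shisa2 averaged 1039 ± 67.2 normalized reads in Wnt1-Cre;pMes-Bmp4 and 599.9 ± 90.5 in wild-type (SD, n = 2 each), or 0.80 on the log2 scale, with a limma adjusted p of 0.0391, and it did not pass after the length correction (0.0786). At an unadjusted p under 0.05, 2 of the 6 were higher, Shisa2 and Sostdc1, against 13.4% of all genes. Sostdc1 had 3014 and 2469 normalized reads in Wnt1-Cre;pMes-Bmp4 against 2035 and 1511 in wild-type. Its log2 fold change was 0.64 with a limma adjusted p of 0.0759, or 0.224 after the length correction. In edgeR 1 was higher and in DESeq2 2, against 2.44% and 9.99%. None was called lower in limma, edgeR or DESeq2, and 1 was lower at an unadjusted p under 0.05, against 15.3%. That was Kremen2, the paralogue of Kremen1, which was chosen here after its values were seen. It had 78.9 and 48.5 normalized reads in Wnt1-Cre;pMes-Bmp4 against 99.4 and 147.1 in wild-type, a log2 fold change of -0.95 with a limma adjusted p of 0.140. The median log2 fold change of the list was 0.12.

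Lrp6, the co-receptor that DKK1 binds, fell. It had 744.4 and 779.6 normalized reads in Wnt1-Cre;pMes-Bmp4 against 1432 and 1626 in wild-type, with no overlap and a gap wider than the spread within either group. This was a 2.00-fold lower level, with an SE of 0.15 on the log2 scale and a limma adjusted p of 0.0219. Its longest transcript has 9368 bases, and the length-corrected log2 fold change was -0.43 with a limma adjusted p of 0.136. Of the 16 WNT receptors and co-receptors tested, Lrp6 was the 1 called lower in limma, against 5.28% of all genes, and 0 were called higher. In edgeR too 1 was lower and 0 higher, against 5.46% and 2.44%. A negative log2 fold change was found for 15 of the 16, against 48.7% of all genes, with a median of -0.40. At an unadjusted p under 0.05, 6 were lower and 0 higher, against 15.3% and 13.4% of all genes, and DESeq2 called 2 of the 13 with an adjusted p lower, against 12.3%. The median transcript of the list had 4428.5 bases, against 3056 for all genes tested.

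Of 19 WNT ligands 12 were tested, and Wnt5a, a ligand of the β-catenin-independent branch, fell. It averaged 717.1 ± 52.2 normalized reads in Wnt1-Cre;pMes-Bmp4 and 1453 ± 54.9 in wild-type (SD, n = 2 each), or -1.02 on the log2 scale, with a limma adjusted p of 0.0218. Length-corrected, it was at -0.60 with a limma adjusted p of 0.0680. No other ligand was called in either direction in limma, where 5.28% of all genes were lower and 2.97% higher. At an unadjusted p under 0.05, 3 of the 12 were lower and 1 higher, against 15.3% and 13.4% of all genes. With edgeR 1 was lower and 0 higher, against 5.46% and 2.44%. DESeq2 also called 1 lower and 0 higher, against 12.3% and 9.99%, but gave an adjusted p to only 4 of the 12. Of 6 R-spondins and R-spondin receptors tested, 0 were called in limma, edgeR or DESeq2. At an unadjusted p under 0.05, 1 was lower and 0 higher, against 15.3% and 13.4% of all genes. The 1 lower was the receptor Lgr4, with a log2 fold change of -0.47 and a limma adjusted p of 0.104.

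The feedback and target genes of WNT/β-catenin signalling were read as 12 genes, of which 3 fell, against 5.28% of all genes, 0 were called higher and 9 did not pass. The 3 were the cyclin gene Ccnd1, the growth regulator Myc and Nkd2, a feedback inhibitor that acts on Dishevelled. Ccnd1 averaged 2431 ± 348 normalized reads in Wnt1-Cre;pMes-Bmp4 and 4504 ± 788 in wild-type (SD, n = 2 each), or -0.89 on the log2 scale, with a limma adjusted p of 0.0321. Nkd2 and Myc were at -1.18 and -0.74, with limma adjusted p values of 0.0466 and 0.0484. Corrected for length, Ccnd1 still passed, at 0.0482, while Nkd2 and Myc did not, at 0.0632 and 0.0517. The median of the list was -0.54, and 11 of the 12 had a negative log2 fold change, against 48.7% of all genes. Not all of the 11 fell by much. Sp5, Rnf43 and Nkd1 were at -0.01, -0.02 and -0.03 and Lef1 at -0.11, each with a limma adjusted p of 0.686 or more. At an unadjusted p under 0.05, 6 of the 12 were lower and 0 higher, against 15.3% and 13.4% of all genes. With edgeR 3 were lower and 0 higher, against 5.46% and 2.44%. With DESeq2 6 of the 11 with an adjusted p were lower and 0 higher, against 12.3% and 9.99%. Myc and Ccnd1 also answer to many other pathways, and Dkk1 itself is a target in this sense.

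**Figure D4:**
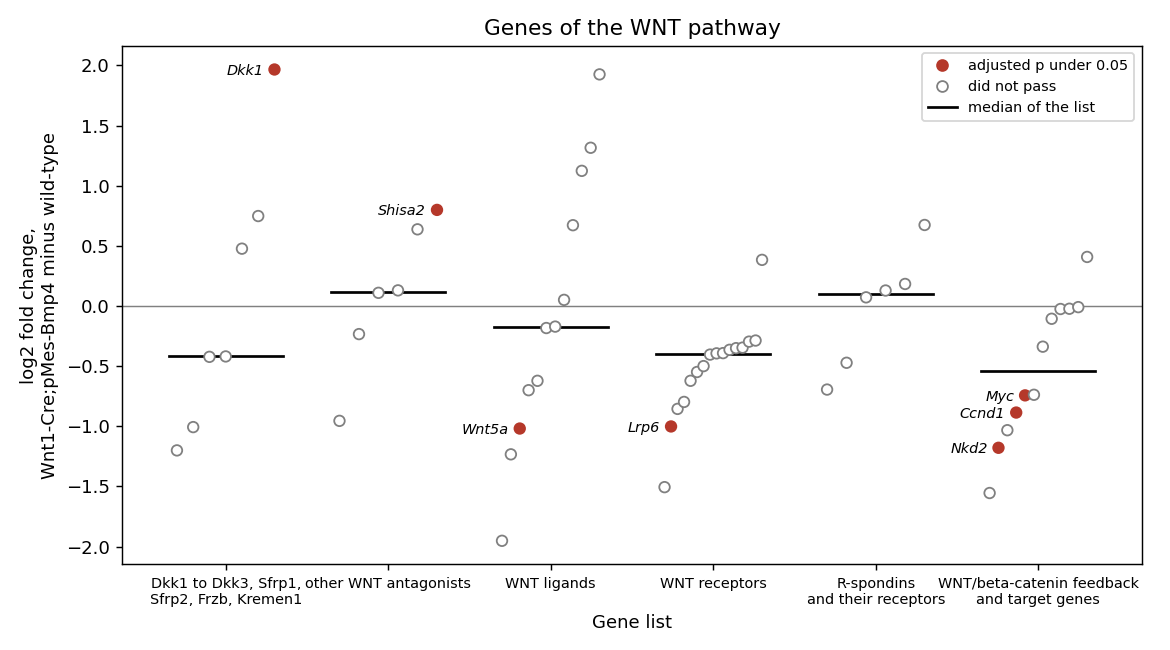
Log2 fold change, Wnt1-Cre;pMes-Bmp4 minus wild-type, of each tested gene of the WNT pathway by list. Red points passed at a limma adjusted p under 0.05 and are named, open points did not pass, and the black line is the median of the list. Dkk1, at 1.97, and Shisa2, at 0.80, are the red points above 0, and Wnt5a, Lrp6, Ccnd1, Myc and Nkd2 are the red points below 0.

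The 5 genes whose profile over the 4 libraries lay nearest to that of Dkk1 were taken by Euclidean distance between centred log2 values. Of the 12411 genes with a mean of 50 or more, 10937 were candidates. Members, predicted genes, genes with clone names, pseudogenes and date-like symbols were left out. They were Masp1, a protease of the complement lectin pathway, at a distance of 0.30, Lrrc34 at 0.34, Bambi, a pseudoreceptor that dampens BMP signalling, at 0.38, the docking protein gene Dok5 at 0.39 and Ctxn3 at 0.40. Masp1 had 69.3 and 103.1 normalized reads in Wnt1-Cre;pMes-Bmp4 against 26.7 and 15.4 in wild-type, so that library 2 was the higher in Wnt1-Cre;pMes-Bmp4 and the lower in wild-type, as for Dkk1. Bambi had 6896 and 6016 in Wnt1-Cre;pMes-Bmp4 against 1972 and 1650 in wild-type. With 4 libraries such likeness describes their order and size of difference only.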

How the data were processed

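PolyA-selected RNA was read by random-primed RNA-seq, per the labels' protocols. The deposited table holds a signal for each gene, namely featureCounts read counts, per the file headers, which the authors had divided by a factor for each library. The tool fastp 0.21.0 and the build mm10 were named, per the submitters' processing notes; aligner, annotation release and strand setting were not given in the sources used here. Each column, divided by its smallest positive value, was whole to within 0.01 in 100% of rows. These recovered reads entered edgeR 4.0.16, which called 409 genes higher and 915 lower, and DESeq2 1.42.0, as alternatives.

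Genes with a mean of 10 or more, 16746 in all, were tested in limma 3.58.1 (R 4.3.3) with a variance trend, on log2 of the value plus 1, two-sided, with Benjamini-Hochberg adjustment over all of them and a threshold of 0.05. It had 2 residual and 5.26 prior degrees of freedom; with 2 against 2 libraries an exact permutation test cannot go below 0.333. The log2(value + 1) scale understates changes of low genes. Lengths came from the longest GENCODE M21 transcript on GRCm38; the length correction subtracted a spline with 4 degrees of freedom from each library. Other alternatives were a correction for length and GC content together, pseudocounts, filters, scalings, variance settings, a replicate block and leaving out each library. Steps were tested on simulated data. Named genes were the 9 members, Bmp4, from each WNT list up to 4 called genes, or else the 1 of smallest p, and the 5 nearest to Dkk1. Kremen2, Sostdc1, Sp5, Rnf43, Nkd1, Lef1 and marker genes fall outside this rule and were named after their values were seen. Members, lists and tests were chosen with earlier results of these data known. Figures used matplotlib 3.10.9.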

Additional observations from a re-analysis of the deposited data

How the results depend on the processing

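All 7 genes tested kept the sign of their log2 fold change in the alternatives run, and Dkk1 was called in 15 of 18, with log2 fold changes from 1.63 to 2.25. Without the variance trend limma called no gene (0 higher, 0 lower, 3925 at an unadjusted p under 0.05); Dkk1 was at 1.97 with an adjusted p of 0.145, so 0 members were called, where edgeR called 1. With robust hyperparameters 1 member, Kremen1, was lower, and 809 genes were higher. DESeq2 called 1 member lower, also Kremen1, and 1284 genes higher and 1582 lower. The length correction left 99 genes higher and 151 lower. A correction for length and GC content together left 648 higher and 747 lower. There Dkk1 was at 1.63 with a limma adjusted p of 0.0140, and 0 members were lower. Genes said above not to pass after the length correction were read under length alone. Leaving out each library gave 0 to 2 members higher and 0 to 3 lower, 0 to 2675 genes higher and 0 to 2719 lower, and Dkk1 from 1.68 to 2.25; the arm left with 1 library is assumed to vary like the other. Without wild-type replicate 1 no gene passed in limma (0 higher and 0 lower), and without wild-type replicate 2 there were 1 and 0, so every gene named as called in limma on all 4 libraries rests on both wild-type libraries, while edgeR and DESeq2 were not rerun without a library. The cause was not tested. The labels number the libraries 1 and 2, but deviations of same-numbered libraries correlated at -0.147 across genes, so the numbers were not taken as pairs. With the replicate block 165 genes were higher and 543 lower, and Dkk1 was again the member called, at 1.97 with an adjusted p of 0.00812. With the pairing crossed, an alternative added after the data were seen, limma called 1763 genes higher, 1952 lower and 1 member lower. Depth limits Dkk2, Wif1 and Sfrp5.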
